A study of Mus musculus with 4 samples.

Results

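The interleukin-12 and interferon-gamma circuit was followed through 8 genes, taken as the rows of the feature table that carry their symbols, of 31053 genes in the table. All 8 were found once and all 8 were detected. The genes were read in lung leukocytes of Balb/c mice that had been injected intravenously with 4T1, a carcinoma line of the mouse mammary gland that settles in the lung. The injected cells were labelled either 4T1.WT or 4T1.PD-L1 KO, and the lungs were perfused, digested and enriched for CD45-bearing cells with magnetic beads at day 14. PD-L1, encoded by Cd274, binds PD-1, an inhibitory receptor of leukocytes. The injected line is the only thing that the labels give as differing between the groups, so all host mice count as Balb/c with no allele named. There were 2 libraries per group, named after their labels and numbered 1 and 2. Sets of 4 values give both libraries labelled WT by number, then both labelled PD-L1 KO. The labels do not say that the libraries of a group came from separate mice, so p-values measure only the spread between these libraries.

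The names of the deposited files carry the condition opposite to the sample labels in both groups, and the labels were used. Every direction below is therefore that of libraries labelled PD-L1 KO against libraries labelled WT, and would turn round if the file names were right. The deleted gene could not decide this: the gate for epithelial or carcinoma cells held 6, 4, 12 and 8 cells with 0, 0, 2 and 1 UMIs of Cd274, and a 3' count need not fall after a deletion elsewhere in the gene. A UMI is a molecular tag that counts each captured RNA molecule once. The 4 matrices held 17618220 to 19635984 UMIs, and 9054 of 10382 barcodes passed the cell filters, with 2019 to 2451 cells and a median of 4395 to 5512 UMIs per cell in a library. At most 3 barcodes were shared by a pair of libraries. Marker genes, none of them a member of the circuit, placed 7022 of the cells (77.6%) in a class, and 18.8% to 25.4% of a library's cells stayed without one. WT 2 held more endothelial cells than the others, with 132, 307, 143 and 115 in that gate.

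Interleukin-12 is a cytokine of activated dendritic cells and macrophages, made of the p40 subunit encoded by Il12b and the p35 subunit encoded by Il12a. It binds a receptor whose chains are encoded by Il12rb1 and Il12rb2, on natural killer (NK) cells and T cells and signals through STAT4. Together with interleukin-18, whose receptor includes the product of Il18r1, it drives these cells to make interferon-gamma, encoded by Ifng. The T-box transcription factors T-bet (Tbx21) and Eomes keep the Ifng locus and the cytotoxic programme active in them. Interferon-gamma in turn acts on myeloid cells, where it induces antigen presentation, chemokines such as Cxcl9 and Cxcl10, and further Il12b. Many of those target genes also respond to type I interferon.

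The DNA just upstream of the source gene, the inducible receptor chain and the output gene of the circuit is shown because the results turn on these 3 genes. Each line holds the 250 bases before the start of transcription, read 5′ to 3′ on the gene's own strand, from RefSeq on GRCm38.p6, the build that mm10 names. Capitals mark matches to the motifs searched on both strands.
Il12b promoter, chr11:44399813-44400062, plus strand: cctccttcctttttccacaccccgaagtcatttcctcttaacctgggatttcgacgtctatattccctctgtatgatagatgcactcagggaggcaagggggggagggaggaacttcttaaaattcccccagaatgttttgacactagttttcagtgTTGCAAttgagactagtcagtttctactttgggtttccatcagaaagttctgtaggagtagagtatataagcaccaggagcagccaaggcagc
Il12rb2 promoter, chr6:67376189-67376438, minus strand: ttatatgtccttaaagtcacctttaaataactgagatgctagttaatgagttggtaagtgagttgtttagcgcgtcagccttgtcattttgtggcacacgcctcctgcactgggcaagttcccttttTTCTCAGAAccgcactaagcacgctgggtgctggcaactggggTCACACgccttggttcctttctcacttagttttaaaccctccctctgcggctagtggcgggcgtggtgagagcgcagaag
Ifng promoter, chr10:118440796-118441045, plus strand: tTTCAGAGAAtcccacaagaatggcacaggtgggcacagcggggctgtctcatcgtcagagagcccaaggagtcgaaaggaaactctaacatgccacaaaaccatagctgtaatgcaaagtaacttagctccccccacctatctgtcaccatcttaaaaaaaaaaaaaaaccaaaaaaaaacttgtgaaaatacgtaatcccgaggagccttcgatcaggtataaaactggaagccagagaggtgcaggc
The capitals in the Il12b window are TTGCAA, a core of C/EBP binding sites, which starts 93 bases upstream and is found in 5.34% of 32851 promoter windows of this length. In the Il12rb2 window they are the palindrome of STAT sites, TTCNNNGAA, 123 bases upstream and the T-box core TCACAC 80 bases upstream, found in 7.02% and 12.3% of windows. The Ifng window holds the STAT palindrome 249 bases upstream. The palindrome also occurs in a window of Il18r1, 219 and 152 bases upstream of a transcription start that lies inside the gene. The other Il18r1 windows, nearer the gene start, hold no match. None of the matches overlap. A match describes the letters and is no measured binding site.

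Il12b (ENSMUSG00000004296, chromosome 11, 44400063 to 44414033 of mm10) was counted mostly in dendritic cells. Mature dendritic cells, gated by Fscn1, Ccl22, Cacnb3, Ccr7, Il4i1 and Ccl17, held 80.8% of its 880 UMIs, although they were only 65 of the 9054 cells. The next such share of a member was that of Eomes, with 50.1% in NK cells. In that gate there were 60, 95, 181 and 375 UMIs of Il12b in 14, 10, 16 and 25 cells. As counts per 1000000 UMIs of the class (CPM) this is 472, 1097, 1042 and 1561. WT 2 and PD-L1 KO 1 were alike, so the groups overlapped. Type 1 dendritic cells, which cross-present antigen and bear Xcr1 and Clec9a, stood far lower at 38.7, 9.5, 37.2 and 29.7 CPM, from 18, 5, 8 and 8 UMIs. In monocytes and macrophages 0, 0, 1 and 2 UMIs were counted over 238, 190, 277 and 249 cells, at 0 to 0.798 CPM. Cells without a class held 32, 9, 78 and 7 further UMIs, of which up to 33 lay in a single cell. By their highest marker score, 42 of these UMIs lay in cells nearest monocytes and macrophages, 33 of them in 1 cell. Cells nearest mature and type 1 dendritic cells held 27 and 18, and those nearest NK cells and neutrophils 17 and 10. Those nearest B cells and epithelial or carcinoma cells held 6 each.

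**Figure D1:**
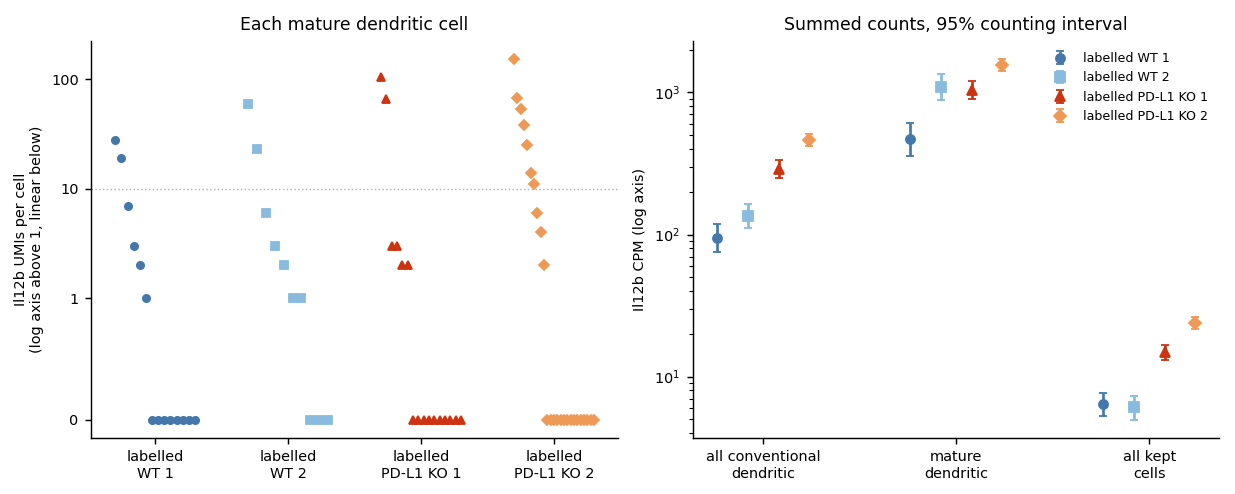
Il12b in dendritic cells. Left, each point is 1 mature dendritic cell, sorted by its Il12b UMIs within a library, with the dotted line at 10 UMIs; right, CPM of summed counts in all conventional dendritic cells, mature dendritic cells and all kept cells, with exact 95% Poisson intervals that cover counting error only. A few cells of each library carry most UMIs, and both libraries labelled PD-L1 KO lie above both labelled WT among all dendritic and all kept cells but not among mature ones.

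Within the mature gate the transcript was concentrated in single cells. Of the 65 cells, 13 carried at least 10 UMIs each and together 663 of the 711 UMIs of the gate (93.2%), while 36 carried none. There were 2, 2, 2 and 7 such cells in the 4 libraries, and the highest cell of each held 28, 59, 105 and 154 UMIs. The median depth was 12242 UMIs in the 13 cells and 9151.5 in the 36 cells without Il12b. As a description of cells chosen by this gene, Irf8, a transcription factor of the dendritic and monocyte lineage, stood at 2275 CPM in the 13 cells and 679 in the 36. Stat4 stood at 332 and 149 CPM, Cd274 at 213 and 93.1 CPM, and the chemokine gene Ccl17 at 1807 and 3748 CPM. Of the other genes of the gate, Ccr7, a chemokine receptor of migrating dendritic cells, stood at 4017 and 2588 CPM, Fscn1 at 1392 and 1409 CPM, and Ccl22 at 1825 and 1558 CPM. Cacnb3 stood at 735 and 580.2 CPM and Il4i1 at 675 and 596 CPM.

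Summed over all conventional dendritic cells (type 1, type 2 and mature), Il12b stood at 94.96, 136, 290 and 465 CPM. Both libraries labelled PD-L1 KO were above both labelled WT, and 1309 of 6873 genes tested (19.0%) were ordered in that way. The log2 difference was 1.68 (SE 0.28), and it missed the threshold in the quasi-likelihood test of edgeR (adjusted p = 0.0838). In that fit 0.0436% of genes were called, and neither tested member was. DESeq2 on the same sums gave 1.68 (SE 0.33) with an adjusted p of 0.000997. The edgeR value passed when any 1 library was left out (log2 1.30 to 2.00, adjusted p 1.78e-10 to 0.0270), in fits that called 39 to 132 genes, with a lone library taken to vary like the other group. With all 4 libraries it also passed without the filter on low counts (log2 1.68, adjusted p = 9.61e-10, 95 genes called) and without cell filters or doublet removal (1.78, adjusted p = 0.0409). The edgeR value missed the threshold with classes taken from clusters (1.39, adjusted p = 0.0731) and with doublets kept (1.68, adjusted p = 0.0838). It also missed with a marker dominance of 1.5 (1.54, adjusted p = 0.237) and with a replicate block (1.66, adjusted p = 0.191).

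The mature share of the dendritic cells moved with this difference between the groups. Of the dendritic cells, 14 of 69, 10 of 63, 16 of 60 and 25 of 70 were mature. Within the group labelled WT it did not, as WT 2 had the smaller mature share and the higher Il12b level. Within mature cells alone the edgeR log2 difference was 0.71 (SE 0.40, adjusted p = 0.995), and it ranged from 0.23 without WT 1 to 1.44 without WT 2. Among the remaining dendritic cells it was -0.21 (SE 0.61, adjusted p = 1.00). The share of mature cells with an Il12b UMI was 42.9%, 70.0%, 37.5% and 40.0%, and 27.1%, 42.3%, 22.5% and 32.7% once every cell was thinned to 1500 UMIs. This order goes against that of the CPM, so no change is read from it (difference of the thinned means -7.11 percentage points, two-sided exact permutation p = 0.667). With 2 libraries against 2, no such test can go below 0.333. Among all dendritic cells the thinned shares were 7.22%, 7.74%, 7.49% and 12.7% (exact permutation p = 0.667). No Il12b UMI was found in the 212, 209, 209 and 112 B cells, which by the exact 95% binomial interval allows 1.72% to 3.24% of a library's B cells to show a UMI. At a median of 2859.5 to 3455 UMIs per B cell this limits cells with a UMI, not cells that express the gene.

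Over all kept cells Il12b stood at 6.37, 6.06, 14.8 and 23.9 CPM, from 110, 109, 268 and 393 UMIs. Both libraries labelled PD-L1 KO were above both labelled WT, as were 14.9% of the 13990 genes tested. The log2 difference was 1.70 (SE 0.28, unadjusted p = 0.0024) and was not called by edgeR (adjusted p = 0.751), in a fit that called 0 genes, 541 of them (3.87%) being under an unadjusted p of 0.05. DESeq2 called 15 genes in the same table, Il12b among them (log2 1.71, adjusted p = 0.00254), and edgeR called it without WT 1 (adjusted p = 0.00398), in a fit that called 2258 genes, and without WT 2 (0.0209), where it called 48. Fewer cells of a type and less RNA per cell cannot be told apart in such library sums.

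Of the partners of p40, p35 was counted in other classes. Il12a, the p35 subunit, had 0 UMIs in the conventional dendritic cells of every library, where 3 counts would be 3.64 to 4.60 CPM. It was counted in B cells at 34.6, 31.4, 29.4 and 21.8 CPM, and in plasmacytoid dendritic cells at 18.5, 0, 44.2 and 60.2 CPM from 2, 0, 10 and 15 UMIs. Il23a, the p19 subunit that pairs with p40 in interleukin-23, had 1 UMI among the 13 cells rich in Il12b and the 36 without it. Il18 was mainly a transcript of alveolar macrophages, the resident macrophages of the air space, which held 79.6% of its UMIs at 599.5, 553, 588 and 548 CPM, and the groups overlapped. Il15, a growth factor of NK cells, stood at 23.6, 34.7, 121 and 62.4 CPM in mature dendritic cells, from 3, 3, 21 and 15 UMIs. Its presenting receptor Il15ra stood there at 55.0, 139, 155 and 112 CPM.

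**Figure D2:**
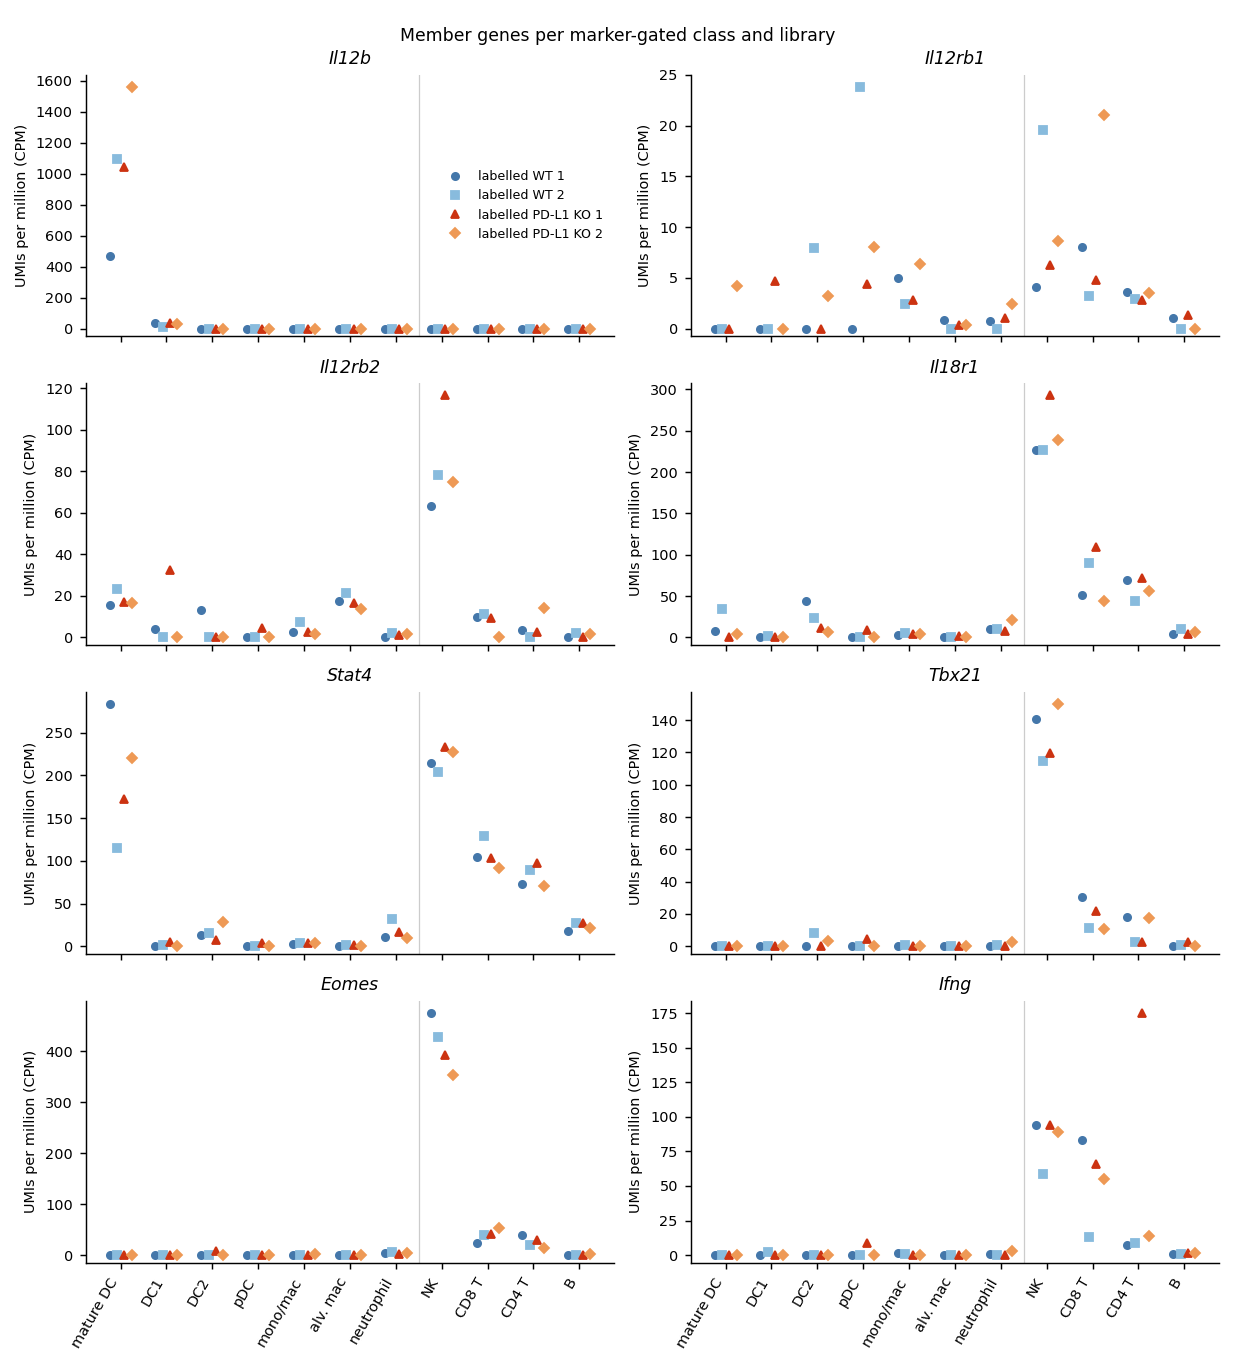
The 8 member genes in 11 marker-gated classes. Each point is the CPM of the summed counts of 1 library in 1 class (DC, dendritic cell; DC1 and DC2, type 1 and 2; pDC, plasmacytoid; alv. mac, alveolar macrophage), and the vertical line parts myeloid from lymphoid classes; axes differ between genes. Il12b lies in mature dendritic cells, while Il12rb2, Il18r1, Tbx21 and Eomes are highest in NK cells and Stat4 is high in both.

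The receptor chains were counted both in lymphoid and in myeloid classes. Il12rb2 (ENSMUSG00000018341, chromosome 6, 67291318 to 67376188), the inducible signalling chain, was highest in NK cells at 63.2, 78.2, 117 and 74.9 CPM. The groups overlapped, and the edgeR log2 difference was 0.45 (SE 0.30, adjusted p = 0.899). CD8 T cells, at 9.62, 11.3, 9.59 and 0 CPM, and CD4 T cells, at 3.64, 0, 2.87 and 14.1 CPM, lay below every NK value. Levels of CD4 T cells leave out regulatory T cells (66, 72, 66 and 45 cells remain), while the CD4 T sums compared by edgeR include them (79, 86, 80 and 62 cells). A second site was less usual: alveolar macrophages stood at 17.6, 21.4, 16.5 and 13.5 CPM and, being many and large, held 184 UMIs, 34.7% of all Il12rb2 UMIs, against 23.0% in NK cells. Monocytes and macrophages stood lower in every library, at 2.72, 7.37, 2.79 and 1.60 CPM, and neutrophils stood at 0 to 2.17 CPM. The levels of alveolar macrophages labelled PD-L1 KO lay below both labelled WT. This gene was not tested in that class, and the share of all genes in that order was not counted there, so no change is read from it.

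Il12rb1 (ENSMUSG00000000791, chromosome 8, 70808449 to 70821424), the chain shared with the interleukin-23 receptor, was sparse everywhere, with 233 UMIs in all. Summed over all kept cells it stood at 2.96, 2.11, 3.47 and 4.93 CPM, with both libraries labelled PD-L1 KO above (log2 0.79, SE 0.34, adjusted p = 0.751 by edgeR). Regulatory T cells held 20.3, 31.7, 8.14 and 20.2 CPM, but from 1 to 3 UMIs each. NK cells, with 2, 7, 2 and 3 UMIs, were too shallow to compare.

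Il18r1 (ENSMUSG00000026070, chromosome 1, 40465552 to 40500854), a chain of the interleukin-18 receptor, stood at 226, 226, 293 and 239 CPM in NK cells. Both libraries labelled PD-L1 KO were above both labelled WT, by a log2 difference of 0.24 (SE 0.18, adjusted p = 0.926 by edgeR). In CD8 T cells the values were 51.3, 90.4, 109 and 44.7 CPM, and in CD4 T cells 69.2, 44.3, 71.7 and 56.4 CPM, with the groups overlapping in both. T cells in which neither Cd4 nor Cd8 set the class were higher in every library, at 106, 95.004, 125 and 180 CPM. The few basophil or mast cells, with 3, 6 and 5 UMIs in the first 3 libraries, reached 367, 446 and 214 CPM. The other chain of this receptor, Il18rap, stood at 579, 428, 447 and 478 CPM in NK cells, and neutrophils held 26.7% of its UMIs.

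Stat4 (ENSMUSG00000062939, chromosome 1, 51987148 to 52107189), the signal transducer of the interleukin-12 receptor, was high on both sides of the circuit. NK cells stood at 214, 204, 233 and 228 CPM and mature dendritic cells at 283, 116, 173 and 221 CPM. CD8 T cells followed at 104, 129, 103 and 92.0 CPM and CD4 T cells at 72.9, 88.7, 97.5 and 70.5 CPM, while B cells stood at 17.3 to 27.1 CPM. The NK and mature dendritic ranges overlapped, and so did those of the 2 T cell classes. Monocytes and macrophages stood at only 2.26 to 4.18 CPM.

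Between the labelled groups, Stat4 in NK cells was higher in both libraries labelled PD-L1 KO (log2 0.15, SE 0.18, adjusted p = 0.969), and in CD8 T cells lower in both (-0.27, SE 0.24, adjusted p = 0.789), by edgeR. In all dendritic cells it stood at 47.5, 17.6, 50.6 and 75.3 CPM, a log2 difference of 0.91 (SE 0.40, adjusted p = 0.778) that was called without WT 1 (1.77, adjusted p = 0.0117) and without PD-L1 KO 1 (1.15, 0.0383). Within mature cells the difference was -0.10 (SE 0.43, adjusted p = 0.999). The mature share given above moves with this difference too.

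The T-box factors marked the NK cells. Eomes (ENSMUSG00000032446, chromosome 9, 118478212 to 118486132) stood at 475, 428, 393 and 354 CPM there, and this class held 50.1% of its UMIs. Both libraries labelled PD-L1 KO were below both labelled WT, an order that 18.3% of the 4950 genes tested in NK cells shared. The log2 difference of -0.27 (SE 0.16) was not called by edgeR (adjusted p = 0.871). The CD8 T cells stood lower, at 24.1, 38.7, 42.0 and 52.6 CPM, all below the NK values, and there both libraries labelled PD-L1 KO were above (log2 0.52, SE 0.36, adjusted p = 0.689). Naive-like CD8 T cells showed the same order at 11.8, 30.7, 44.6 and 54.4 CPM, from 4, 17, 15 and 10 UMIs, whereas effector-like cells overlapped at 34.0, 93.1, 31.2 and 48.8 CPM. Over all kept cells Eomes stood at 22.3, 18.4, 16.5 and 15.2 CPM (log2 -0.30, SE 0.16, adjusted p = 0.751), both libraries labelled PD-L1 KO being below as for 26.4% of all genes.

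Tbx21 (ENSMUSG00000001444, chromosome 11, 97098071 to 97115331) stood at 141, 115, 120 and 150 CPM in NK cells, with overlapping groups (log2 0.08, SE 0.22, adjusted p = 0.992 by edgeR). CD8 T cells stood at 30.5, 11.3, 21.6 and 10.52 CPM, and their effector-like cells at 53.4, 62.1, 40.1 and 21.7 CPM, from 4 to 18 UMIs. CD4 T cells held 5, 1, 1 and 5 UMIs. Neutrophils, as a class that should lack both factors, stood at 2.16 to 6.51 CPM of Eomes and 0 to 2.39 CPM of Tbx21.

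Ifng (ENSMUSG00000055170, chromosome 10, 118441046 to 118445892), the output of the circuit, was counted in NK and T cells, with 588 UMIs in all. NK cells stood at 93.8, 58.7, 94.4 and 89.3 CPM, from 46, 21, 30 and 31 UMIs spread over many cells, none with more than 5. Effector-like CD8 T cells, set apart by Cxcr6, Pdcd1, Nkg7, Ccl5 and Gzmb, stood at 199, 77.6, 116 and 114 CPM, and naive-like ones at 17.7, 5.43, 5.95 and 0 CPM. Every effector-like value was above every naive-like one. B cells stood at 1.08 to 1.68 CPM and neutrophils at 0 to 3.19 CPM. The gates left 30.6% of the Ifng UMIs in cells without a class.

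**Figure D3:**
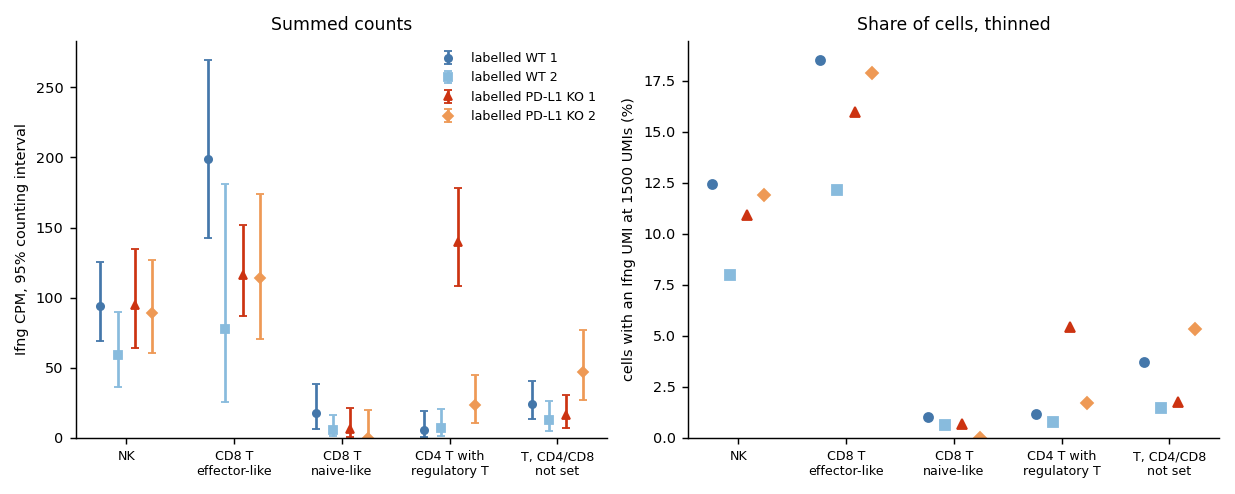
Ifng in lymphocyte classes. Left, CPM of summed counts per library with exact 95% Poisson intervals that cover counting error only; right, the percentage of cells with an Ifng UMI after every cell was thinned to 1500 UMIs. NK and effector-like CD8 T cells stand above naive-like cells in every library, WT 2 is lowest in both, and PD-L1 KO 1 stands apart among CD4 T cells.

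No difference in Ifng between the labelled groups was called in NK or CD8 T cells with all 4 libraries. Over all kept cells it was called by edgeR without WT 1 (log2 1.18, adjusted p = 0.0156), where 2258 genes were. In NK cells WT 2 was lowest, with counting intervals that overlapped those of the other 3 libraries (edgeR log2 0.25, SE 0.29, adjusted p = 0.967). In CD8 T cells the values were 83.4, 12.9, 66.0 and 55.2 CPM (log2 0.35, SE 0.44, adjusted p = 0.856), and 1 library set the direction: without WT 1 the difference was 2.16 (adjusted p = 0.000463, 281 genes called), and without WT 2 it was -0.37 (adjusted p = 0.976). The mix of CD8 T cells moved with this: 39, 15, 48 and 21 of them were effector-like and 62, 99, 68 and 32 naive-like, so WT 2 held the fewest effector-like cells. Within effector-like cells the log2 difference was -0.45 (SE 0.38, adjusted p = 0.742), and this sign too rested on 1 library: it was 0.61 without WT 1 and -0.71 without WT 2 (adjusted p = 0.707 and 0.541). 

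The share of NK cells with an Ifng UMI was 17.7%, 14.3%, 20.6% and 20.6%, and 12.4%, 7.96%, 10.9% and 11.9% at 1500 UMIs, where 11 cells labelled WT and 10 labelled PD-L1 KO were too shallow to enter. The thinned means differed by 1.21 percentage points (two-sided exact permutation p = 1.00). In CD8 T cells the shares were 20%, 6.09%, 18.5% and 14.5% before thinning and 7.57%, 2.13%, 6.62% and 6.84% after it (exact permutation p = 1.00). Neutrophils gave 0% to 0.694% before thinning at a median of 1745 to 2050 UMIs. The median was 2620 to 3149 in NK cells and 4269.5 to 5285 in CD8 T cells, so the unthinned shares are at unlike depth. The NK and CD8 shares, before thinning and at 1500 UMIs, lay above the unthinned neutrophil range.

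CD4 T cells, regulatory cells included, held 2, 3, 66 and 9 Ifng UMIs, or 5.37, 6.94, 140 and 23.5 CPM. Of the 66 UMIs in PD-L1 KO 1, 51 lay in 1 cell, and 15 remained without it. The gene did not pass the low-count filter there, and without that filter edgeR gave a log2 difference of 3.66 (adjusted p = 6.76e-10), which rests on that cell in part. The gene passed the filter in 3 of the 4 fits that leave out a library and was called in each, at 3.47 without WT 1 (adjusted p = 1.40e-05), 3.88 without WT 2 (3.48e-06) and 4.38 without PD-L1 KO 2 (0.000186). Without PD-L1 KO 1, the library that holds that cell, it was not tested. The thinned shares, to which 1 cell adds little, were 1.16%, 0.746%, 5.45% and 1.69% (exact permutation p = 0.333, the smallest possible). The mix of this class also differed between the labelled groups. Of the CD4 T cells other than regulatory ones, 3, 1, 10 and 11 were effector-like and 61, 70, 50 and 32 naive-like. The part of this mix in the Ifng difference was not tested.

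**Figure D4:**
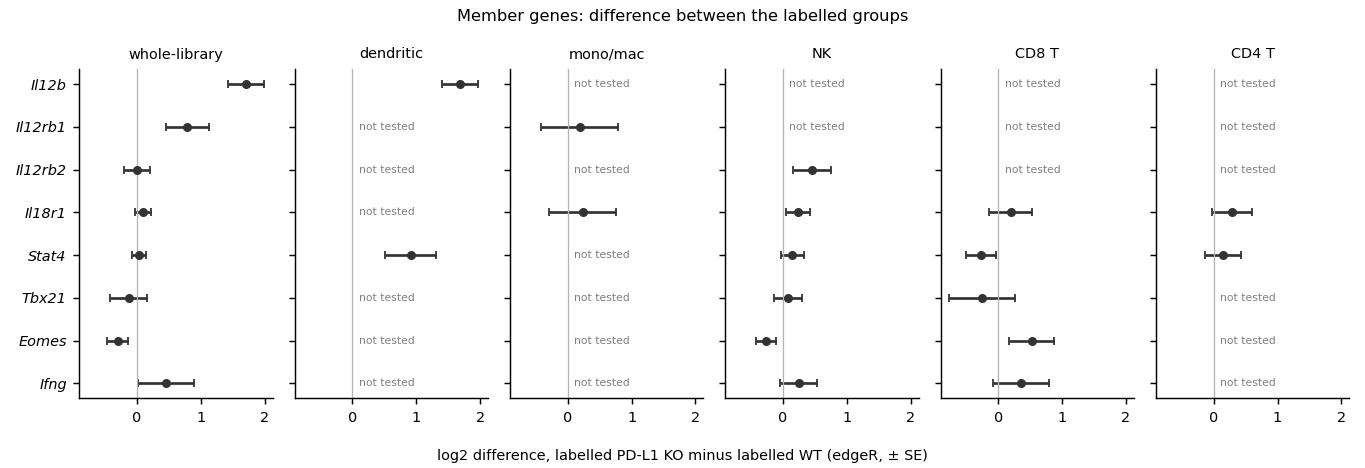
Log2 difference of each member between the libraries labelled PD-L1 KO and WT, by the edgeR fit on each class's summed counts, with standard errors as bars; members that did not pass the low-count filter are marked as not tested. Il12b lies farthest from 0 in all cells and in dendritic cells, and no member passed the adjusted threshold in any of the 6 fits.

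Across the 6 fits, 8 members were tested in whole libraries, 6 in NK cells, 5 in CD8 T cells and 2 each in CD4 T, dendritic, and monocyte and macrophage sums, and edgeR called none. The fits called 0% of all genes in whole libraries and in monocytes and macrophages, 0.0606% in NK cells, 0.113% in CD8 T cells, 0.356% in CD4 T cells and 0.0436% in dendritic cells. In NK cells 2 of the 6 tested members had both libraries labelled PD-L1 KO above both labelled WT and 1 had them below, where 16.8% and 18.3% of all genes did. Of the 5 tested in CD8 T cells, 1 lay above and 1 below, against 19.6% and 19.4%. In dendritic sums both tested members, Il12b and Stat4, lay above, against 19% of genes. In whole libraries 2 of 8 lay above and 1 below, against 14.9% and 26.4%. In CD4 T cells and in monocytes and macrophages 0 of 2 did either. With 2 to 8 members in a fit, these counts are given as a description.

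The other 42 genes of the pathway were given in 5 lists. Of these, 39 were tested in whole libraries with 0 called, 19 in NK cells with 1 called higher, 24 in CD8 T cells with 1 called higher, and 24 in CD4 T, 29 in dendritic and 36 in monocyte and macrophage sums with 0 called. The 1 gene called in NK and in CD8 T cells was Cxcl10, the chemokine of CXCR3-bearing T cells. It stood at 6.12, 0, 337 and 72.0 CPM in NK cells (log2 5.72, SE 0.79, edgeR adjusted p = 0.0045), from 3, 0, 107 and 25 UMIs, of which 90 and 11 lay in the highest cell of the libraries labelled PD-L1 KO. DESeq2 did not call it (adjusted p = 0.806). The CD8 T values were 4.81, 1.61, 37.2 and 81.5 CPM (log2 3.99, SE 0.62, edgeR adjusted p = 0.00383), from 3, 1, 31 and 31 UMIs, with 14 and 25 in the highest cell. With classes from clusters the CD8 difference was 0.96 (adjusted p = 0.719). Monocytes and macrophages held Cxcl10 at 231, 178, 318 and 296 CPM, and the part of free RNA or of joined cells in the lymphocyte values was not tested.

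The 10 genes induced by interferon-gamma had mostly positive differences in cells labelled PD-L1 KO, with 0 called in the myeloid sums. In monocytes and macrophages 9 were tested, 8 lay above 0, and the median log2 difference was 0.61. In dendritic cells 7 of 8 lay above 0 with a median of 0.90, and in whole libraries 9 of 9 with a median of 0.49. Of all genes tested 50.4%, 49.5% and 46.4% lay above 0 in these 3 fits, with medians of 0.0037, -0.0047 and -0.023. In NK, CD8 T and CD4 T sums 2 of 2, 3 of 4 and 5 of 5 lay above 0. Among naive-like CD8 T cells 3 of 3 did, and among effector-like ones 0 of 2. The list was chosen with earlier results of these data known, so these counts are given as a description. Cxcl9, a second CXCR3 ligand, stood at 817, 167, 1210 and 646 CPM in monocytes and macrophages (log2 0.93, SE 0.62, edgeR adjusted p = 0.741), with WT 1 above PD-L1 KO 2. Irgm1, an interferon-induced GTPase, stood at 42.1, 34.4, 56.1 and 57.8 CPM there (log2 0.59, SE 0.19, edgeR adjusted p = 0.661). Cd274 stood at 18.3, 20.4, 58.3 and 40.1 CPM in dendritic cells (log2 1.30, SE 0.33, edgeR adjusted p = 0.446). Without mature cells the dendritic median was 1.12 over 5 genes, and among mature cells alone it was -0.03 over 4 genes.

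**Figure D5:**
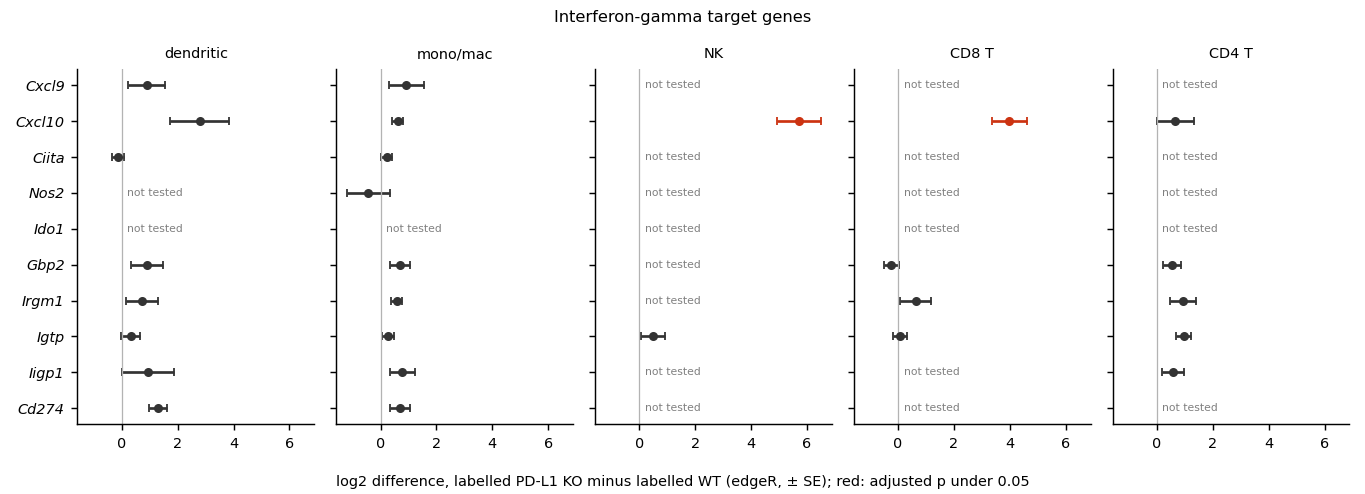
Log2 difference of the 10 interferon-gamma target genes between libraries labelled PD-L1 KO and WT, by edgeR on summed counts of 5 classes, with standard errors as bars; red marks adjusted p under 0.05. Most points in dendritic cells and in monocytes and macrophages lie above 0 and none is called there, while Cxcl10 is called in NK and CD8 T cells.

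In the other lists 0 genes were called. Of the kinases, STATs and inhibitors, 8 were tested in dendritic and in CD8 T cells and 7 in NK cells. Their median log2 differences were 0.41, 0.44 and -0.11 in that order. Socs1, an inhibitor of cytokine signals, had a log2 difference of 1.09 in NK cells (SE 0.26, edgeR adjusted p = 0.203). Of the 8 transcription factors of the type 1 programme, 6 were tested in NK cells (median 0.15) and 7 in CD8 T cells (median 0.05). Among them Zeb2, a factor of late NK maturation, stood at 577, 464, 387 and 403 CPM in NK cells (log2 -0.39, SE 0.16, edgeR adjusted p = 0.782). Of the 8 receptors and decoys, 4 were tested in NK cells (median 0.04) and 5 in CD8 T cells (median 0.07). Of the 8 cytokines and partner subunits, 0 passed the low-count filter in NK, CD8 T or CD4 T cells.

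The genes most like each member were found by Pearson correlation of log2(CPM + 10) over 40 points, 10 classes in each of the 4 libraries, among 12567 genes. The points share libraries and classes, so r is a description. Tbx21 was most like Sytl3 (0.98), Klre1 and Ncr1, and Eomes most like Fasl (0.98), Klre1 and Sytl3. Il18r1 was most like Il2rb (0.96), Sh2d1a and Txk, and Il12rb2 most like the Ly49 receptor genes Klra9 (0.92) and Klra3, then Car5b. Klre1, Ncr1 and Txk helped to set the NK gate. Ifng was most like Ctsw (0.92), Gzmb and Nkg7, and Stat4 most like Ptpn22 (0.91), Sh2d2a and Cd7. Gzmb and Nkg7 are markers of effector-like T cells, a split that these points do not use. Il12b was most like Ehf (0.98), Bcl2l14 and Nudt17, and Il12rb1 most like Gm29243 (0.82), Sla2 and Nlrc3.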

How the data were processed

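The values deposited by the authors are raw UMI counts of genes in barcodes (whole numbers, per the file headers). The submitters' processing notes name Cell Ranger 3.1.0, STAR and mm10. No annotation release is given in the sources used. Cells with at least 200 genes and at most 10% mitochondrial counts were kept (1126 barcodes failed), and 216 barcodes (2.08%) called as doublets were removed, with scanpy 1.11.5. A cell joined a class whose marker score was highest, at least 2 times that of any class outside its own family, with at least 3 markers detected (2 for short lists). This rule was set after seeing the data: 415 gated cells had a ratio under 2.5 and 592 ungated cells one of 1.5 to 2. The top genes of the classes compared held their own markers, but the gate selects cells by these markers, so this is no separate check. NK cells also showed Ccl5, Gzmb and Nkg7. Type 1 innate lymphoid cells would enter the NK gate. Counts were summed per library and class and compared with edgeR 4.0.16 (quasi-likelihood, group only, TMM, filterByExpr, Benjamini-Hochberg over all genes tested), with DESeq2 1.42.0 as an alternative. On simulated counts the edgeR script was tested. Shares were thinned to 1500 UMIs, and intervals are exact at 95%. Named genes are the 8 members, the fixed pathway and marker lists, and the 3 genes most like each member. The members and lists were chosen with earlier results of these data known. Promoter sequences come from RefSeq (GRCm38.p6), and positions from the gene annotation of that build.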

Additional observations from a re-analysis of the deposited data

Results flagged for a closer look

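For 3 pairs of classes both libraries labelled PD-L1 KO moved one way in one class and the opposite way in the other, with groups that did not overlap; none of these differences was itself tested, and no member was called in either class. Eomes lay below in NK cells and above in CD8 T cells, and the log2 differences were 0.79 apart. Stat4 lay above in NK cells and below in CD8 T cells, 0.42 apart, and above in dendritic cells and below in CD8 T cells, 1.18 apart. In NK cells 16.8% of all genes tested lay above and 18.3% below, in CD8 T cells 19.6% and 19.4%, and in dendritic cells 19% lay above. Genes with opposite orders in both classes at once were not counted.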

How the results depend on the processing

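The number of genes that edgeR called depended on the setting. With DESeq2 it was 15 in whole libraries, 0 in NK cells, 2 in CD4 T cells, 7 in dendritic cells and 4 in monocytes and macrophages, against 0, 3, 18, 3 and 0 by edgeR. Without the low-count filter it was 56 in NK, 62 in CD8 T, 113 in CD4 T and 95 in dendritic cells and 187 in monocytes and macrophages. Without cell filters NK cells gave 1 and CD8 T cells 12, and with doublets kept CD8 T cells gave 15, against 7 at first. With classes from clusters NK cells gave 20, CD8 T cells 3, CD4 T cells 1 and dendritic cells 7. With a marker dominance of 1.5, chosen after seeing the data as were all splits of a class, NK cells gave 9, CD8 T cells 0, CD4 T cells 10 and dendritic cells 1. Mature dendritic cells alone and dendritic cells without them gave 0 each, effector-like CD8 T cells 32 and naive-like ones 0.

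Replicate numbers are shared by the groups, but nothing in the labels pairs them. Same-numbered libraries deviated together with a correlation of -0.30 in whole libraries, -0.22 in monocytes and macrophages, and -0.10 to 0.05 in the other sums. With a replicate block edgeR called 0 genes in whole libraries, 36 in NK, 19 in CD8 T, 83 in CD4 T and 0 in dendritic cells and 13 in monocytes and macrophages. Il12b in dendritic cells then had a log2 difference of 1.66 (adjusted p = 0.191), and no member was called with or without the replicate block. With the numbers crossed, 0 genes were called in whole libraries and 1 in monocytes and macrophages.

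Leaving out each library in turn gave 0 to 2258 genes in whole libraries, most without WT 1, 2 to 60 in NK, 22 to 281 in CD8 T, 7 to 136 in CD4 T and 39 to 132 in dendritic cells, and 0 to 122 in monocytes and macrophages. Members without a steady direction then ranged, in whole libraries, from -0.21 to 0.17 (Il12rb2), -0.039 to 0.21 (Il18r1), -0.021 to 0.10 (Stat4), -0.46 to 0.30 (Tbx21) and -0.028 to 1.18 (Ifng). In NK cells Tbx21 ranged from -0.11 to 0.24 and Ifng from -0.0058 to 0.62. In CD8 T cells Il18r1 ranged from -0.65 to 0.76, Tbx21 from -0.94 to 0.55 and Ifng from -0.37 to 2.16. In CD4 T cells Stat4 ranged from -0.17 to 0.37, and in monocytes and macrophages Il12rb1 ranged from -0.46 to 0.91 and Il18r1 from -0.20 to 0.60. The difference in thinned shares of cells with Ifng ranged from -1.03 to 3.44 percentage points in NK, -0.841 to 4.60 in CD8 T and 0.736 to 4.49 in CD4 T cells, and with Il12b from 0.012 to 5.24 in dendritic and -14.7 to 0.496 in mature dendritic cells.

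Other settings turned a sign 11 times, with the cause not tested: Il12rb2 in whole libraries by DESeq2 (0.0018), Il18r1 and Stat4 there in leukocytes alone (-0.040 and -0.14), Il18r1 and Stat4 in naive-like CD8 T cells (-1.07 and 0.23), Eomes in CD8 T cells from clusters (-0.0016), Ifng in CD8 T cells at dominance 1.5 (-0.025) and in effector-like ones (-0.45), Il12b without mature dendritic cells (-0.21), Stat4 in mature ones (-0.10) and Il18r1 in monocytes and macrophages at dominance 1.5 (-0.079). Eomes, Il12rb2, Il18r1 and Stat4 in NK cells, Il12b, Il12rb1 and Eomes in whole libraries, and Il18r1 in CD4 T cells kept their direction in every setting run. The NK or CD8 T cells of a library held 8 to 55 Ifng UMIs, and the smallest difference that could be called at this depth was not computed.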
